A study of Aedes aegypti with 12 samples.

Results

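Clip-domain serine proteases, the serpins that block them and the prophenoloxidases they switch on act in melanization in the insect blood. By such names, 110 of the 19256 genes in the deposited tables were taken as members. Membership rests on the description alone, and whether each member acts in melanization was not tested. A gene was a member when its deposited description named a serpin or related protease inhibitor, a phenoloxidase, a clotting factor or proclotting enzyme, a protease of the easter, snake, persephone or stubble type, or a dopachrome enzyme. By description the members were 72 proteases, 21 serpins, 10 prophenoloxidases, 3 dopachrome enzymes and 4 other inhibitors of the Kazal or Kunitz type. Of the proteases, 35 carried a CLIP family name in the files: 3 CLIPA, 21 CLIPB, 7 CLIPC and 4 CLIPD.

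RNA-seq libraries came from 2 tissues of Aedes aegypti, brain and fat body. The groups were Gr34 mutant brain, wild-type (WT) brain, Gr34 mutant fat body and WT fat body, with 3 libraries in each. Mutant animals were mutated in AaegGr34, which belongs to the gustatory receptor genes, and the wild type was the Liverpool strain. Both genotypes were reared alike, with free access to 10% sugar solution. Not given in the sources used here are the lesion and its strain background, or how old, of which sex and how recently fed the animals were. Nothing states whether the replicates came from separate cultures, so p-values measure only the spread between these libraries. In bulk tissue, fewer cells of a type and less RNA per cell cannot be told apart.

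Melanization in insects starts when pattern recognition proteins trigger a chain of clip-domain proteases, which cut one another in turn. The last protease of the chain cuts prophenoloxidase to active phenoloxidase, which oxidizes tyrosine derivatives to quinones that form melanin. Serpins trap individual proteases of the chain and so hold melanization and the Toll pathway in check. The fat body secretes many of these proteins into the blood, and in mosquitoes a class of hemocytes, the oenocytoids, makes prophenoloxidase.

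The libraries held between 18500303 and 31314215 gene counts in all. AaegGr34 itself (LOC5570009) had 6, 11 and 28 counts in Gr34 brain, against 24, 22 and 7 in WT brain, and 2, 11 and 2 counts in Gr34 fat body, against 2, 4 and 16 in WT fat body. Those counts overlapped between genotypes in both tissues (brain log2 fold change 0.04 ± 0.61 SE, edgeR adjusted p 0.985), so the transcript level did not check the genotype labels. Tissue labels were checked by marker genes. Of 25 tested fat body markers, 17 were higher in WT fat body than in WT brain and 1 was lower. Of 70 tested neuron and glia markers, 60 were lower there and 4 higher. Over all genes tested, 32.0% were higher there and 32.7% lower. The fat body list was matched by name and also holds eggshell proteins, pyruvate dehydrogenase enzymes and the vitellogenin receptor. Its count is thus not of fat body genes alone. Photoreceptor markers, 38 genes, took 26.1, 27.1 and 25.2% of TPM in Gr34 brain, against 33.3, 29.0 and 32.7% in WT brain, without overlap, and their part in the brain results was not tested.

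Levels are given first, in TPM, a share of each library's transcripts corrected for gene length. The 110 members together held 4034, 4555 and 6056 TPM in Gr34 fat body, against 4844, 4593 and 4002 TPM in WT fat body. In brain they held 1487, 1575 and 1003 TPM in Gr34 libraries, against 835, 935 and 933 TPM in WT libraries. The brain groups did not overlap, and the fat body groups did. At a mean of 1 TPM or more stood 82 members in Gr34 fat body, 82 in WT fat body, 81 in Gr34 brain and 78 in WT brain. One member, an inhibitor, was listed at 0 in every library.

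The most abundant proteases were of the easter type, named after the Drosophila protease that cuts the Toll ligand Spaetzle. CLIPB34 (LOC5563616) led in WT fat body and WT brain, with 333, 282 and 465 TPM in Gr34 fat body, against 453, 376 and 322 TPM in WT fat body. In brain it had 137, 151 and 140 TPM in Gr34 libraries, against 90.6, 100 and 109 TPM in WT libraries. The genotypes overlapped in fat body and not in brain, where the log2 fold change of 0.49 ± 0.13 SE missed the threshold (edgeR adjusted p 0.0590).

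CLIPB8 (LOC5578692) had 473, 433 and 505 TPM in Gr34 fat body, against 332, 343 and 293 TPM in WT fat body, and 55.4, 49.3 and 52.6 TPM in Gr34 brain, against 25.8, 26.4 and 37.6 TPM in WT brain. All Gr34 values exceeded all WT values of the same tissue on the TPM scale. CLIPB8 missed the edgeR threshold in brain (adjusted p 0.0546) and was not called in fat body. The authors' DESeq2 log2 fold change was 0.77 in brain (adjusted p 0.00484) and 0.64 in fat body (adjusted p 0.870). CLIPB1 (LOC5563566) came next in WT fat body, at 182 ± 35.4 TPM in Gr34 and 209 ± 48.8 TPM in WT (SD, n = 3 each). In WT brain the next proteases after CLIPB34 were an easter-type protease (LOC5567682), at 44.0 ± 12.9 TPM in Gr34 brain and 39.8 ± 7.70 TPM in WT brain, and the snake-type CLIPC2 (LOC5579956), at 37.8 ± 4.98 TPM in Gr34 brain and 34.2 ± 4.02 TPM in WT brain (SD, n = 3 each). Neither differed between genotypes beyond the replicate spread.

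Among serpins, serine protease inhibitor 27A (LOC5563725) was highest in fat body. Its Drosophila namesake inhibits the protease that activates prophenoloxidase. It had 353, 435 and 535 TPM in Gr34 fat body, against 324, 341 and 281 TPM in WT fat body. SRPN20 (LOC5575764) had 320 ± 117 TPM in Gr34 fat body and 273 ± 84.7 TPM in WT fat body, and SRPN11 (LOC5565795) 278 ± 86.0 TPM in Gr34 fat body and 247 ± 5.88 TPM in WT fat body (SD, n = 3 each). SRPN9 (LOC5570558) was highest in WT brain, at 66.8 ± 19.0 TPM in Gr34 brain and 63.1 ± 18.6 TPM in WT brain (SD, n = 3 each), while in Gr34 brain LOC5563725 was highest, at 88.2 ± 22.6 TPM. SRPN10 (LOC5569575) stood at 38.1 ± 3.31 TPM in Gr34 brain and 36.3 ± 1.87 TPM in WT brain. The brain values of SRPN9 and SRPN10 overlapped between genotypes.

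Prophenoloxidases were much less abundant than the proteases and serpins. The 10 genes together held 12.7, 85.8 and 97.2 TPM in Gr34 fat body, against 40.9, 46.8 and 65.9 TPM in WT fat body. They held 27.8, 42.3 and 18.0 TPM in Gr34 brain, against 9.93, 11.6 and 15.4 TPM in WT brain. One Gr34 fat body library thus lay below all WT fat body libraries and the other 2 above them, while the brain groups did not overlap. Of the dopachrome enzymes, which turn dopachrome into the precursor of eumelanin, Dce1 (LOC5563621) averaged 72.1 ± 34.8 TPM in Gr34 fat body and 65.3 ± 11.4 TPM in WT fat body, and yellow-f (LOC5563570) 26.6 ± 10.7 TPM in Gr34 fat body and 40.3 ± 8.02 TPM in WT fat body (SD, n = 3 each). The remaining dopachrome gene (LOC5563593) was near 0, at 0.140 ± 0.167 TPM in Gr34 fat body and 0.139 ± 0.132 TPM in WT fat body. The inhibitor dipetalogastin (LOC5567341), a Kazal protein named after a thrombin inhibitor of a blood-feeding bug, had 4.43, 79.6 and 95.4 TPM in Gr34 fat body, against 25.5, 17.2 and 7.86 TPM in WT fat body. The Kunitz inhibitor LOC5573701 was at 0.901 ± 0.497 TPM in Gr34 fat body and 1.08 ± 0.525 TPM in WT fat body.

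The first comparison asked which members differed in brain between genotypes. Members moved towards higher levels in Gr34 brain: of 85 with enough counts to be tested, 12 rose and 1 fell (called at an edgeR adjusted p under 0.05). Over all 11848 genes tested, 4.6% were called higher and 4.26% lower, 8.86% in all. The median log2 fold change of the tested members was 0.70, against 0.01 over all genes, and 76 of 85 lay above 0, against 51.0% of all genes. With each library left out in turn the members' median ran from 0.51 to 0.88. All 3 Gr34 libraries exceeded all 3 WT libraries for 35 tested members, and lay below them for 5, against 14.5% and 14.1% of all genes.

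**Figure D1:**
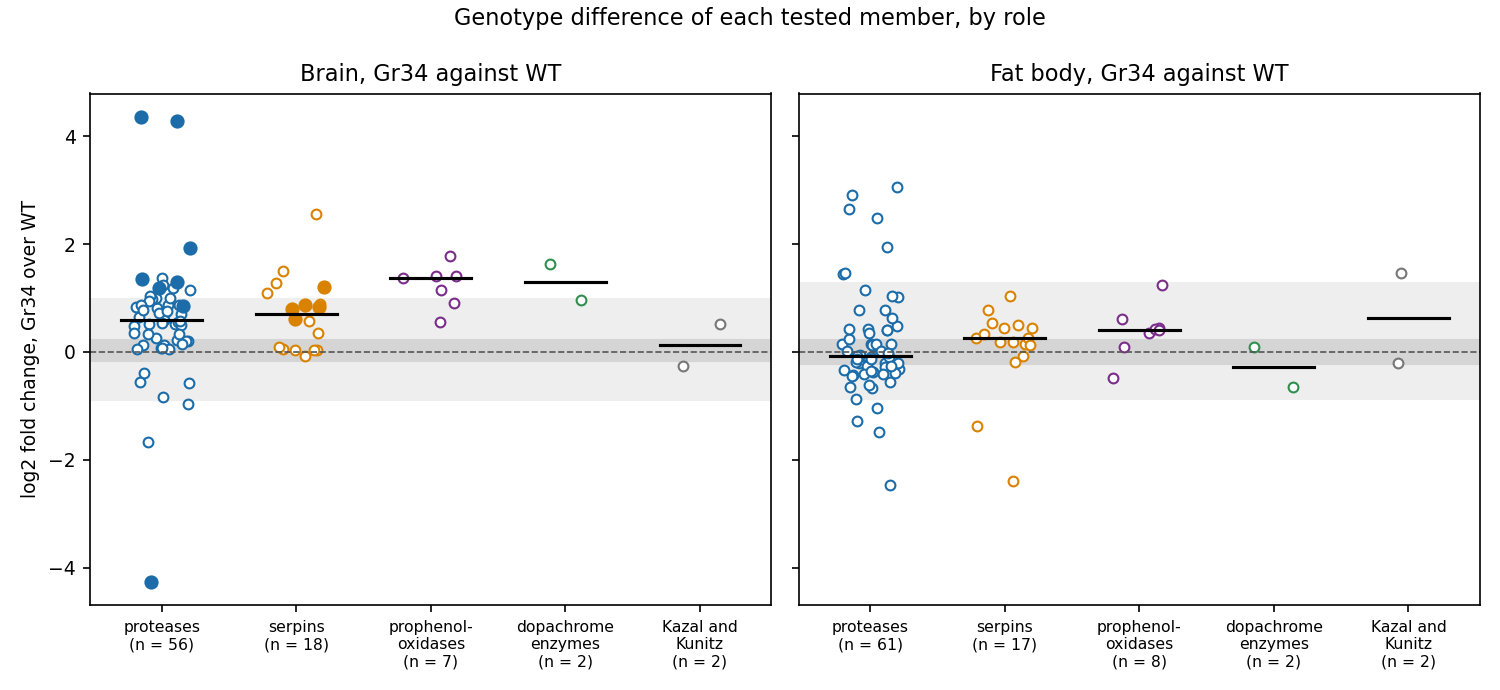
Log2 fold change (Gr34 over WT) of each tested member in brain (left) and fat body (right), by role. Filled points are members called at an edgeR adjusted p under 0.05, open points are not called, black bars are role medians, the dashed line is the median of all genes, and dark and light grey bands hold the middle 50% and 90% of all genes. In brain the medians of proteases, serpins, prophenoloxidases and dopachrome enzymes sit at 0.58, 0.70, 1.38 and 1.30, and in fat body at -0.07, 0.25, 0.41 and -0.28.

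Proteases made up 8 of the 13 calls. Of 56 tested, 7 rose and 1 fell, and the median was 0.58. The largest rises were those of limulus clotting factor C (LOC5577040), named after the horseshoe crab protease that starts blood clotting on contact with bacterial lipopolysaccharide, and of a persephone-like protease (LOC110680652). Persephone acts upstream of Toll in Drosophila immunity.

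Factor C spans 239266375 to 239268653 of chromosome 1 (assembly AaegL5.0, plus strand) and has 6 exons. It had 77, 85 and 44 counts in Gr34 brain, against 4.5, 4.5 and 4 counts in WT brain. The log2 fold change was 4.28 ± 0.40 SE (edgeR adjusted p 0.00157). The persephone-like protease, on an unplaced scaffold, had 43, 44 and 25 counts in Gr34 brain, against 2.25, 2.25 and 1.5 counts in WT brain, a log2 fold change of 4.36 ± 0.43 SE (adjusted p 0.00198). For both genes every Gr34 brain library was far above every WT brain library.

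Both folds rest on the few counts of the WT brain libraries. A neighbour on the same scaffold, the factor C-like gene LOC110680655, is separated from the persephone-like gene by 7 bases, with both on the minus strand. It had 12, 17.5 and 6 counts in Gr34 brain, against 1.25, 2.25 and 1.5 in WT brain, too few to be tested there, and it is named because of its place beside the persephone-like gene. Another gene on that scaffold, LOC110680656, a further 14388 bases away, had 1, 2.25 and 1 counts in Gr34 brain, against 0.5, 3 and 2.5 in WT brain, and did not follow them.

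Some counts of these genes are not whole numbers, and their proportions can be set side by side. In brain the counts of factor C and the persephone-like protease that were not whole all lay in WT libraries. The persephone-like protease had 0.558, 0.518 and 0.568 times the count of factor C in Gr34 brain, 0.406, 0.401 and 0.366 times in Gr34 fat body and 0.463, 0.460 and 0.447 times in WT fat body. In WT brain it had 0.5, 0.5 and 0.375 times, on few counts. LOC110680655 had 0.156, 0.206 and 0.136 times the count of factor C in Gr34 brain and 0.278, 0.5 and 0.375 times in WT brain. In fat body it had 0.297, 0.33 and 0.321 times in Gr34 and 0.264, 0.3 and 0.298 times in WT. Whether reads of 1 gene were shared among the 3 was not tested. A gene on the other strand that overlaps factor C, LOC110674038, was far more abundant, with a mean of 2309 counts in Gr34 brain and 3602 in WT brain, and its log2 fold change of -0.40 (adjusted p 0.0607) had the opposite sign.

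**Figure D2:**
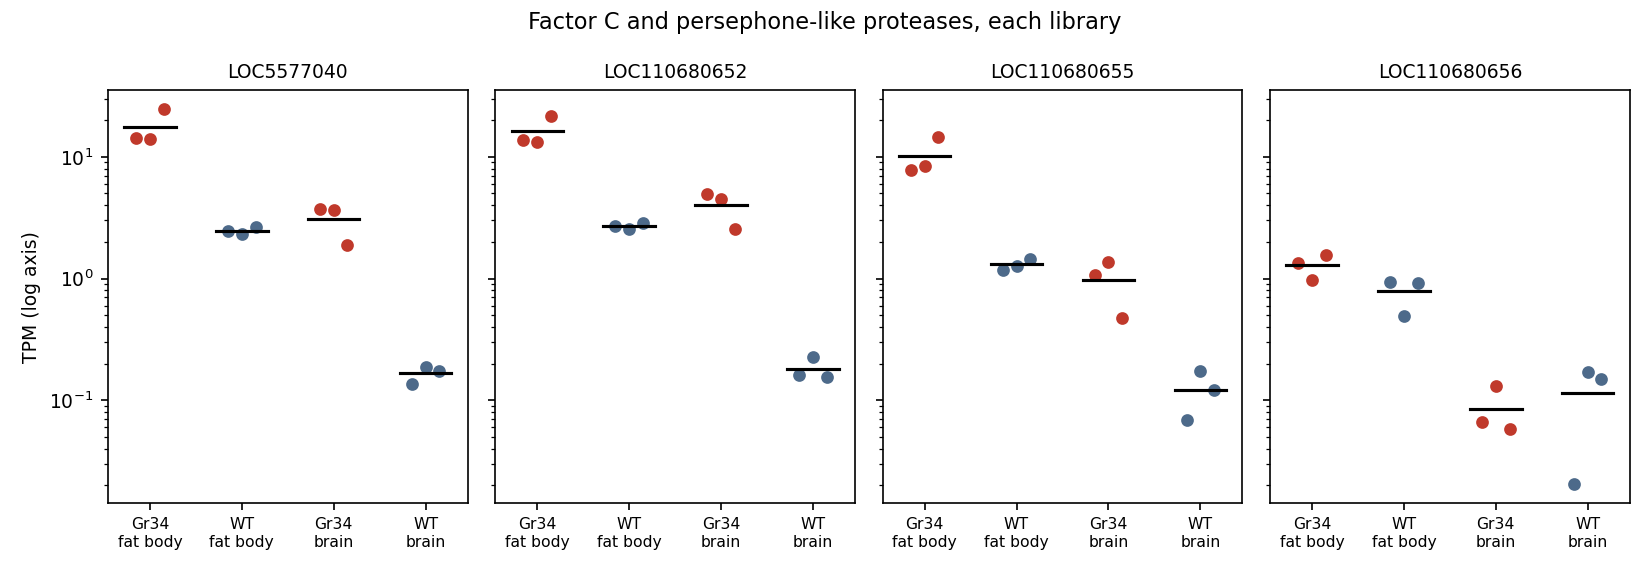
TPM on a log axis of factor C (LOC5577040), the persephone-like protease (LOC110680652) and 2 factor C-like genes, in each library of the 4 groups, with Gr34 in red, WT in blue and black bars at group means. Factor C averages 17.7 TPM in Gr34 fat body, 2.48 TPM in WT fat body, 3.09 TPM in Gr34 brain and 0.166 TPM in WT brain, and LOC110680656 shows no such gap between genotypes in brain.

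The other called proteases changed by less. Levels from here to the end of the brain comparison are CPM (counts scaled to the TMM-adjusted library size). CLIPB19 (LOC5563617, chromosome 3 at 105080243 to 105083508) had 8.66, 7.01 and 4.44 CPM in Gr34 brain, against 2.58, 2.51 and 3.13 CPM in WT brain. Its log2 fold change of 1.29 ± 0.27 SE passed (adjusted p 0.0286). It was the 1 CLIP-named gene among the calls.

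An easter-type protease (LOC5567041, chromosome 1 at 121972757 to 121989032) had 4.53, 10.5 and 3.23 CPM in Gr34 brain, against 1.42, 1.92 and 1.44 CPM in WT brain (log2 fold change 1.93 ± 0.45 SE, adjusted p 0.0443). A second one (LOC5568136, chromosome 2 at 133118447 to 133119702) had 13.0, 13.5 and 6.61 CPM in Gr34 brain, against 3.30, 4.43 and 5.34 CPM in WT brain (1.35 ± 0.31 SE, adjusted p 0.0410). For each of these, the third Gr34 library lay nearest to the WT libraries.

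Snake cuts easter in the Drosophila embryo. A snake-type protease (LOC5575071, chromosome 2 at 427480654 to 427486582) had 5.89, 5.04 and 4.87 CPM in Gr34 brain, against 2.94, 2.64 and 3.13 CPM in WT brain (0.86 ± 0.17 SE, adjusted p 0.0259). A proclotting enzyme (LOC5572333, chromosome 1 at 209734678 to 209748918), whose horseshoe crab namesake ends the clotting chain, had 12.9, 22.9 and 12.1 CPM in Gr34 brain, against 5.62, 6.94 and 8.63 CPM in WT brain (1.18 ± 0.28 SE, adjusted p 0.0471). The groups did not overlap for either gene.

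One protease fell. The snake-like gene LOC110680964, on an unplaced scaffold, had 2.5, 0.5 and 1 counts in Gr34 brain, against 17.5, 18.2 and 35 counts in WT brain, with a log2 fold change of -4.27 ± 0.82 SE (adjusted p 0.0232). In fat body it had 4, 8 and 10.5 counts in Gr34 libraries, against 15, 9.5 and 8 counts in WT libraries, and these overlapped. Its brain fold rests on few counts.

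Within the CLIP classes the median log2 fold change in brain was 0.70 over 19 tested CLIPB genes, all 19 of them above 0, and 0.11 over 6 tested CLIPC genes, 5 of them above 0. CLIPC proteases act upstream of CLIPB proteases in the insects studied. CLIPA genes, which mostly lack catalytic activity, had a median of 0.05 over 3 tested, and the 2 tested CLIPD genes had log2 fold changes of -1.67 and 0.56. The difference between classes was not tested.

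Serpins gave the remaining 5 calls. All 5 rose, of 18 tested, and 17 of the 18 had log2 fold changes above 0, with a median of 0.70. SRPN8 (LOC5575375) and a copy with equal counts in brain (LOC110681257) are both among the 18 and cannot be told apart. SRPN20 (LOC5575764, chromosome 2 at 14433260 to 14455978) had 25.8, 31.0 and 27.1 CPM in Gr34 brain, against 9.11, 11.4 and 15.9 CPM in WT brain (1.21 ± 0.20 SE, adjusted p 0.0142). The lowest Gr34 library was above the highest WT library by more than the range of either group.

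Of 3 neighbouring 27A serpins on chromosome 2, the outer pair rose. The gene between them, SRPN3 (LOC5566832, 132297829 to 132307971), had 7.35, 8.83 and 4.68 CPM in Gr34 brain, against 5.04, 4.13 and 4.78 CPM in WT brain, and was not called (0.58 ± 0.24 SE, adjusted p 0.212). LOC5563725 (132319515 to 132330329) had 77.5, 84.97 and 53.4 CPM in Gr34 brain, against 37.4, 38.9 and 44.3 CPM in WT brain (0.84 ± 0.17 SE, adjusted p 0.0299). LOC5563726 (132264660 to 132289319) had 22.1, 21.6 and 21.0 CPM in Gr34 brain, against 12.8, 14.2 and 15.5 CPM in WT brain (0.61 ± 0.11 SE, adjusted p 0.0164). The Gr34 libraries of LOC5563726 were nearly alike and stood clear of WT.

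SRPN4 (LOC5578955, chromosome 2 at 305830219 to 305919833), of the 28Dc type, had 77.0, 86.4 and 58.1 CPM in Gr34 brain, against 37.8, 47.6 and 42.2 CPM in WT brain (0.80 ± 0.16 SE, adjusted p 0.0274). SRPN11 (LOC5565795, chromosome 3 at 65148747 to 65155128), described as a leukocyte elastase inhibitor, had 49.2, 46.7 and 30.9 CPM in Gr34 brain, against 20.6, 26.3 and 22.9 CPM in WT brain (0.86 ± 0.19 SE, adjusted p 0.0360). Again the third Gr34 library was lowest and still above all WT libraries.

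**Figure D3:**
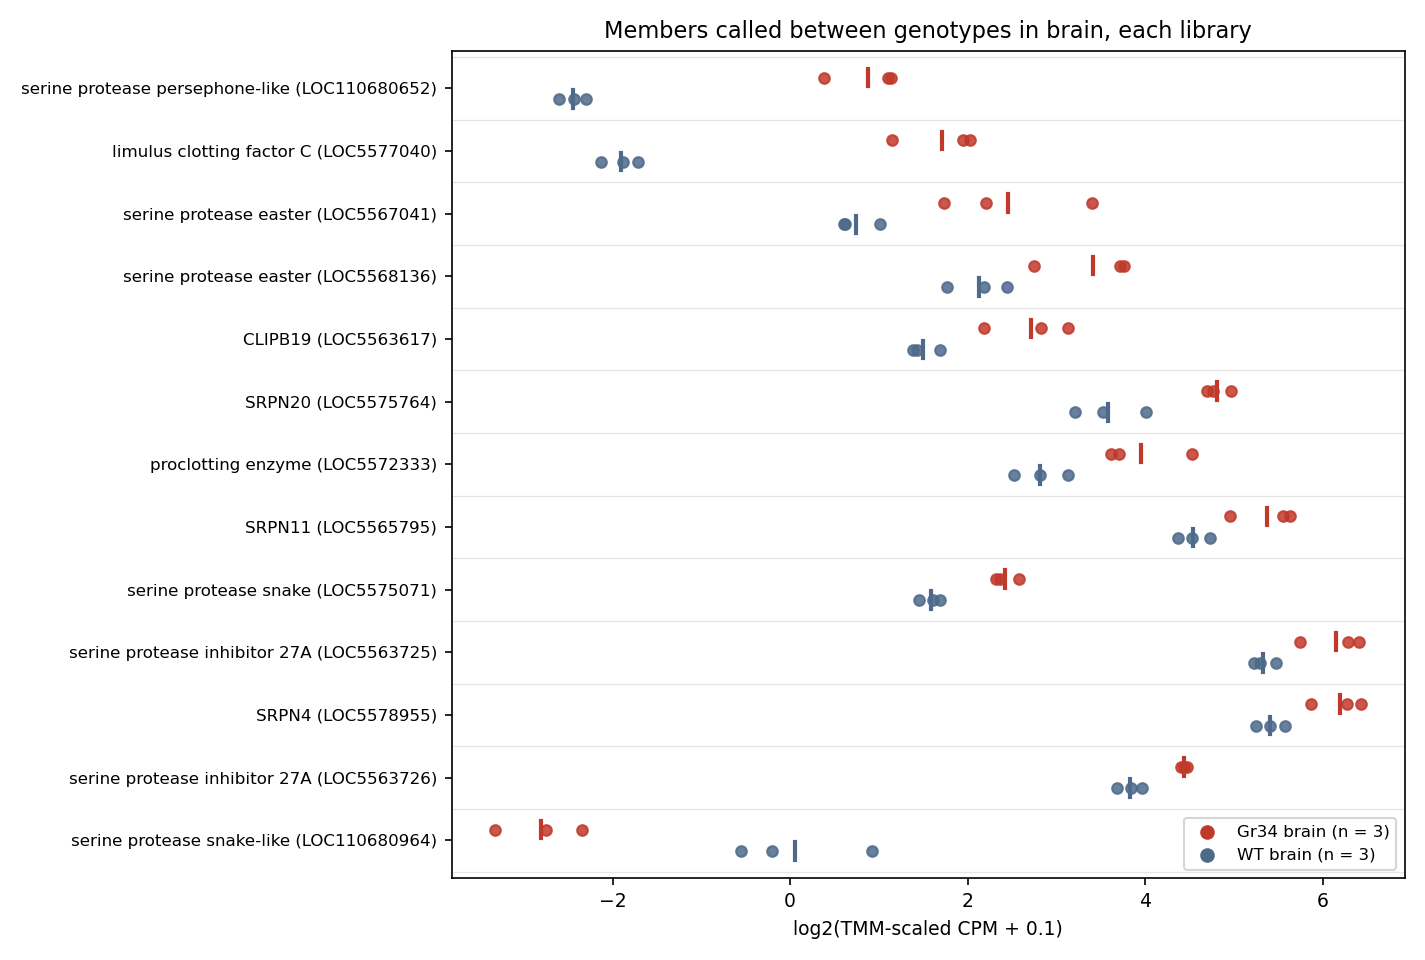
Each brain library of the 13 called members, as log2(TMM-scaled CPM + 0.1), with Gr34 (red, n = 3) above WT (blue, n = 3) in each row, and bars at group means. For every row the groups do not overlap, and in the bottom row, the snake-like gene LOC110680964, Gr34 lies below WT.

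None of the 7 tested prophenoloxidases was called by edgeR, yet each had a log2 fold change above 0, between 0.55 and 1.78, and an unadjusted p under 0.05, which 22.8% of all genes had. DESeq2, in place of edgeR, called 35 members in brain, against 12.1% of all genes it tested, and the authors' deposited table has 33 higher and 2 lower of 102, all 13 called here among them. The authors' DESeq2 values called PPO8, LOC5574118, PPO1 and PPO3 (LOC5575366) higher (adjusted p 0.000831, 0.01425, 0.0435 and 0.04365). PPO4, PPO10 (LOC5575359) and PPO5 were not called there (DESeq2 adjusted p 0.0756, 0.0919 and 0.1865). PPO8 (LOC5578063) had 8.13, 13.8 and 5.69 CPM in Gr34 brain, against 1.62, 2.30 and 4.26 CPM in WT brain (1.78 ± 0.45 SE, adjusted p 0.0554). PPO1 (LOC5566258) had 6.96, 9.95 and 2.41 CPM in Gr34 brain, against 2.07, 1.79 and 3.49 CPM in WT brain (1.41 ± 0.52 SE, adjusted p 0.159). The groups did not overlap for PPO8 and overlapped for PPO1.

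PPO5 (LOC5578065) had 4.87, 6.12 and 3.96 CPM in Gr34 brain, against 3.43, 3.62 and 3.13 CPM in WT brain, and PPO4 (LOC5578064) had 4.14, 6.35 and 4.10 CPM in Gr34 brain, against 2.33, 1.83 and 3.70 CPM in WT brain (adjusted p 0.159 and 0.137). The second Gr34 library was the highest of the 6 brain libraries for all 7 tested prophenoloxidases. The 2 tested dopachrome enzymes also missed the edgeR threshold, at 1.64 ± 0.41 SE for yellow-f (adjusted p 0.0505) and 0.96 ± 0.28 SE for Dce1 (adjusted p 0.0853). The authors' DESeq2 values called both enzymes higher (adjusted p 0.00262 for yellow-f and 0.01765 for Dce1). Their Gr34 libraries, 4.82, 4.204 and 3.38 CPM for yellow-f and 12.6, 12.5 and 7.04 CPM for Dce1, were all above their WT libraries, which reached 2.16 and 6.83 CPM. Dipetalogastin and the Kunitz inhibitor had log2 fold changes of -0.27 ± 0.36 SE and 0.52 ± 0.47 SE, with overlapping groups.

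The Gr34 brain libraries did not stand equally far from WT. Against the WT mean, the median log2 difference of the tested members was 0.61, 0.80 and 0.19 in the 3 Gr34 libraries, against -0.11, -0.07 and 0.18 in the 3 WT libraries. The third Gr34 library was thus level with the third WT library. Without it 26 members were called, and without either the first Gr34 library or the second WT library 2 were called, factor C and the persephone-like protease. Those 2 kept their call in all 6 fits that left out a library, while each of the other 11 lost it in at least 2 of them, so that the number of calls rests on single libraries.

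Markers of other tissues were summed in the same libraries. Fat body markers, 40 genes, summed to 0.0861, 0.0852 and 0.0780% of TPM in Gr34 brain, against 0.0630, 0.0736 and 0.0770% in WT brain, without overlap. Of 18 tested, 1 was called higher and 1 lower, against 4.6% and 4.26% of all genes. With eggshell, dehydrogenase and receptor names left out, 29 genes summed to 0.0715, 0.0712 and 0.0639% in Gr34 brain, against 0.0504, 0.0596 and 0.0656% in WT brain, and these groups overlapped. Hemocyte markers, 18 genes of which none was a hemocytin or a Nimrod protein, summed to 0.0419, 0.0420 and 0.0407% in Gr34 brain, against 0.0360, 0.0394 and 0.0361% in WT brain. None was called by edgeR of 17 tested, and 6 had an unadjusted p under 0.05, against 22.8% of all genes. In that list SPARC (LOC5578380) had 176, 184 and 195 TPM in Gr34 brain, against 134, 145 and 139 TPM in WT brain. Peroxidasin (LOC5575117) ran the other way, at 28.6, 22.2 and 29.6 TPM in Gr34 brain, against 33.4, 39.6 and 39.1 TPM in WT brain. The part of these cells in the result was not tested.

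Salivary gland markers, 20 genes matched by name, summed to 0.192, 0.167 and 0.0204% of TPM in Gr34 brain, against 0.0377, 0.0789 and 0.0334% in WT brain. These groups overlapped, with the third Gr34 library below every WT library. The list also holds glutathione S-transferase D7 genes, such as LOC5568358 at 38.3, 42.1 and 39.6 TPM in Gr34 brain. A 30 kDa salivary gland allergen (LOC5580040) had 423, 369 and 4.14 TPM in Gr34 brain, against 58.6, 145 and 36.7 TPM in WT brain. A pair of serpins ran with the summed share. SRPN23 (LOC5575765, described as antichymotrypsin-2) had 79.3, 58.7 and 0.435 TPM in Gr34 brain, against 12.6, 28.9 and 13.99 TPM in WT brain, and SRPN25 (LOC5569171, described as serpin B5) had 70.8, 34.2 and 0.359 TPM in Gr34 brain, against 3.00, 13.0 and 1.87 TPM in WT brain. For both, 2 Gr34 brain libraries were above and 1 below every WT library, and neither was called (log2 fold change 1.28 ± 1.36 SE and 2.55 ± 1.58 SE, adjusted p 0.652 and 0.426). With these serpins and the factor C set left out, a choice made after seeing the data, the median over the other 81 members tested in brain was 0.61, with 72 above 0.

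Members that are high in fat body moved most in brain. The tested members were sorted by their log2 difference of fat body over brain, averaged over both genotypes, a sorting chosen after seeing the data and one that uses the same brain libraries. The 11 members at 4 and over had a median brain log2 fold change of 0.95 with 3 called higher (27.27%), against 0.80 and 20.07% for the 294 genes of all kinds with such a tissue difference. The 43 members between 2 and 4 had a median of 0.84 with 7 called higher (16.28%), against 0.20 and 7.37% of 1099 genes. The 23 members between 0 and 2 had a median of 0.35 with 2 called higher, against 0.02 and 3.892% of 4137 genes. The 7 members under 0 had a median of 0.12 and no edgeR call, against a median of -0.03 over 5679 genes. Of those genes 158 were called higher (2.782%) and 220 lower, and 7 members are too few to differ from such shares.

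**Figure D4:**
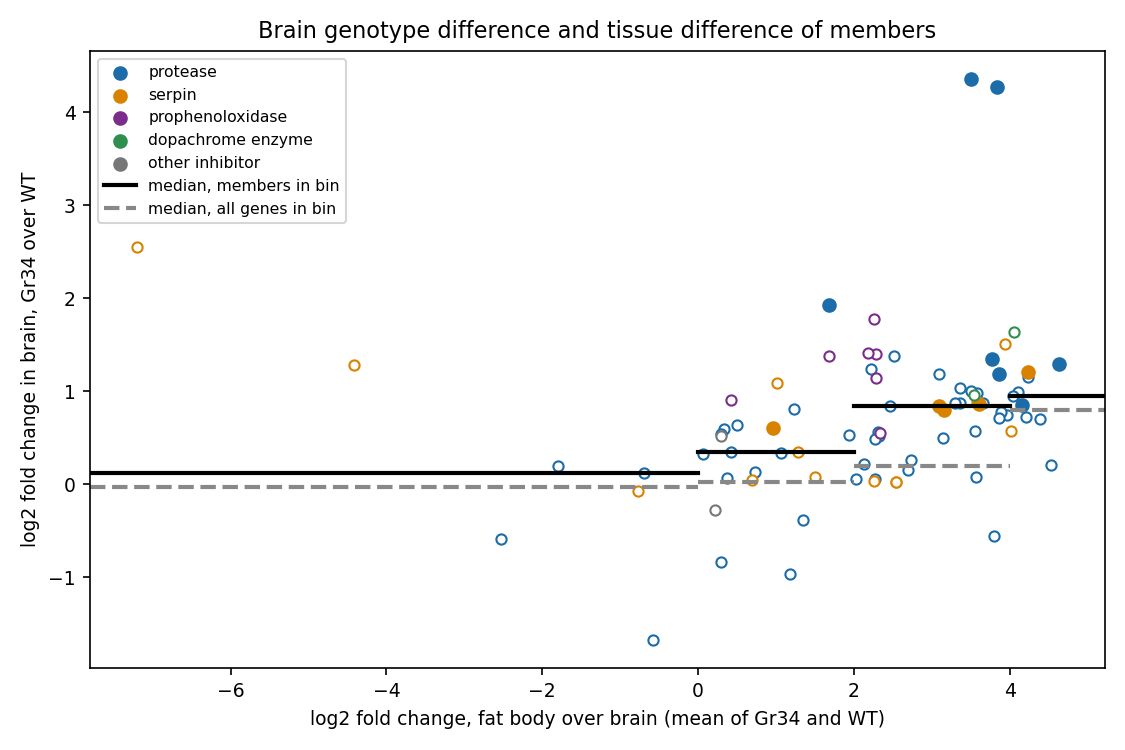
Brain log2 fold change (Gr34 over WT) of each member against its log2 fold change of fat body over brain, averaged over both genotypes. Colours give the role, filled points are members called in brain, and solid black and dashed grey lines are the medians of members and of all genes in 4 bins of the tissue difference. Members lie above all genes in each bin, with medians of 0.84 and 0.20 between 2 and 4, and 0.95 and 0.80 at 4 and over.

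Members also lie in clusters, taken as at least 3 members with gaps of at most 250 kb, of which 11 were found. On chromosome 3 between 104949202 and 105162908 lie 8 CLIPB genes, of which 7 were tested in brain. Their log2 fold changes ran from 0.49 to 1.29, all had an unadjusted p under 0.05, and CLIPB19 was called. On chromosome 2 between 199233194 and 199353479 lie 6 prophenoloxidases, of which the 4 tested had log2 fold changes of 0.55 to 1.78. In the 6 serpins between 14407438 and 14570581 of chromosome 2, 4 were tested, with values from 0.04 to 1.28, and SRPN20 was called. The cluster of the 27A serpins also holds an easter-type protease (LOC5564283) at -0.55 ± 0.47 SE. Another serpin cluster on chromosome 2 holds SRPN6 (LOC5573853) at -0.07 and SRPN5 (LOC5563807) at 1.504. Whether neighbours moved together was not tested, and 76 of all 85 tested members lay above 0.

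Other genes of the pathway were counted in 4 lists, to be read against the 8.86% of all genes called. Recognition genes had 2 called higher and 1 lower of 33 tested: CD109 antigen (LOC23687443), of the thioester protein family, at 1.36 ± 0.33 SE, peptidoglycan-recognition protein LC (LOC5576901) at 0.71 ± 0.12 SE, and protein LE (LOC5577250) at -1.08 ± 0.26 SE. The list median was 0.37. Toll pathway genes had 3 higher and 1 lower of 25 tested (median 0.09). Spaetzle 3 (LOC5565708), a ligand, was at 1.12 ± 0.25 SE, a Toll receptor (LOC5569417) at 0.70 ± 0.16 SE and the adaptor Tube (LOC5569460) at 0.97 ± 0.11 SE, while spaetzle 4 (LOC5569768) was at -1.13 ± 0.19 SE. Other melanin genes had 1 called of 11 tested, yellow (LOC5564720) at 1.19 ± 0.23 SE, with a median of 0.21.

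Proteases of the trypsin fold outside the members had 6 called higher and 1 lower of 57 tested in brain, with a median of 0.38. They included trypsin-1 (LOC5578505) at 2.30 ± 0.19 SE, serine protease 53 (LOC5572144) at 1.51 ± 0.14 SE, serine protease 55 (LOC5575327) at 1.60 ± 0.33 SE and a venom protease (LOC5568133) at 1.29 ± 0.15 SE. Hayan (LOC5576684), which activates prophenoloxidase in Drosophila, and a Hayan-like gene with equal counts (LOC110680788) each had 0.46 ± 0.11 SE and cannot be told apart. A venom serine protease (LOC5568267) was the 1 lower, at -4.46 ± 0.77 SE. In fat body serine protease 53 was also called higher, at 18.6 ± 6.43 CPM in Gr34 and 0.724 ± 0.453 CPM in WT (SD). Its log2 fold change there was 4.70 ± 0.53 SE (edgeR adjusted p 0.0361). No other gene of the pathway lists was called in fat body.

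In fat body none of the 90 tested members was called by edgeR between genotypes. Over all genes 0.234% were called. At an unadjusted p under 0.05 stood 11 members, against 7.85% of all genes, limma-voom called none and DESeq2 called 7, against 2.71% of all genes it tested. The groups did not overlap for 4 members higher and 3 lower in Gr34 fat body, against 6.07% and 4.97% of all genes. The median log2 fold change was 0.12, with 50 of 90 above 0, against 49.5% of all genes, and it ran from -0.15 to 0.49 with each library left out. By role the medians were -0.07 for 61 proteases, 0.25 for 17 serpins and 0.41 for 8 prophenoloxidases.

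The smallest p-values in fat body belonged to the factor C set again. Factor C had 464, 407 and 628 counts in Gr34 fat body, against 88, 62.5 and 70.5 counts in WT fat body (log2 fold change 2.92 ± 0.46 SE, edgeR adjusted p 0.0691). The persephone-like protease had 188, 163 and 230 counts in Gr34 fat body, against 40.8, 28.8 and 31.5 counts in WT fat body (2.65 ± 0.47 SE, adjusted p 0.0961). LOC110680655 had 138, 134 and 202 counts in Gr34 fat body, against 23.2, 18.8 and 21 counts in WT fat body (3.06 ± 0.47 SE, adjusted p 0.0678). The groups did not overlap for any of the 3, and DESeq2 called all 3, with adjusted p from 3.434e-07 to 1.689e-05.

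The other DESeq2 calls in fat body, named here because of those calls, were CLIPB21 (LOC5568359) at 2.51 ± 0.77 SE, CLIPC11 (LOC5575036) at -2.45 ± 0.57 SE, SRPN24 (LOC23687669) at -2.40 ± 0.67 SE and a stubble-type gene (LOC5572015) at -4.45 ± 1.35 SE. CLIPB21 had 41.9, 4.01 and 8.26 CPM in Gr34 fat body, against 4.42, 2.59 and 2.66 CPM in WT fat body, so that 1 library carried most of its difference and the groups overlapped. CLIPC11 had 0.905, 0.777 and 0.605 CPM in Gr34 fat body, against 7.19, 3.03 and 2.46 CPM in WT fat body, without overlap. SRPN24 had 0.517, 0.550 and 0.220 CPM in Gr34 fat body, against 3.23, 2.68 and 1.02 CPM in WT fat body, also without overlap. LOC5572015 had 0, 2 and 1 counts in Gr34 fat body, against 2, 34 and 33 counts in WT fat body, so that its fold rests on a pair of WT libraries and the lowest WT count was no higher than the highest Gr34 count.

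Prophenoloxidases spread widely among the Gr34 fat body libraries. PPO8 had 4.12, 20.1 and 24.8 TPM in Gr34 fat body, against 8.32, 9.35 and 13.2 TPM in WT fat body. PPO5 had 1.92, 11.3 and 15.0 TPM in Gr34 fat body, against 9.05, 12.4 and 17.1 TPM in WT fat body, and PPO1 had 1.51, 16.0 and 20.6 TPM in Gr34 fat body, against 7.39, 8.16 and 10.3 TPM in WT fat body. The first Gr34 library was the lowest of the 6 for 7 of the 8 tested prophenoloxidases, on TPM and on TMM-scaled CPM alike. The third Gr34 library was the highest for 8 of 8 on CPM and for 4 of 8 on TPM.

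In the same libraries hemocyte markers summed to 0.0293, 0.0526 and 0.0487% of TPM in Gr34 fat body, against 0.0478, 0.0591 and 0.0382% in WT fat body. Gut markers summed to 0.105, 1.10 and 1.75% in Gr34 fat body, against 0.285, 0.171 and 0.165% in WT fat body, and ovary and germline markers to 0.0690, 0.401 and 0.121% in Gr34 fat body, against 0.0424, 0.233 and 0.378% in WT fat body. The first Gr34 library was lowest for the hemocyte and gut lists. The part of these cells in the prophenoloxidase spread was not tested.

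**Figure D5:**
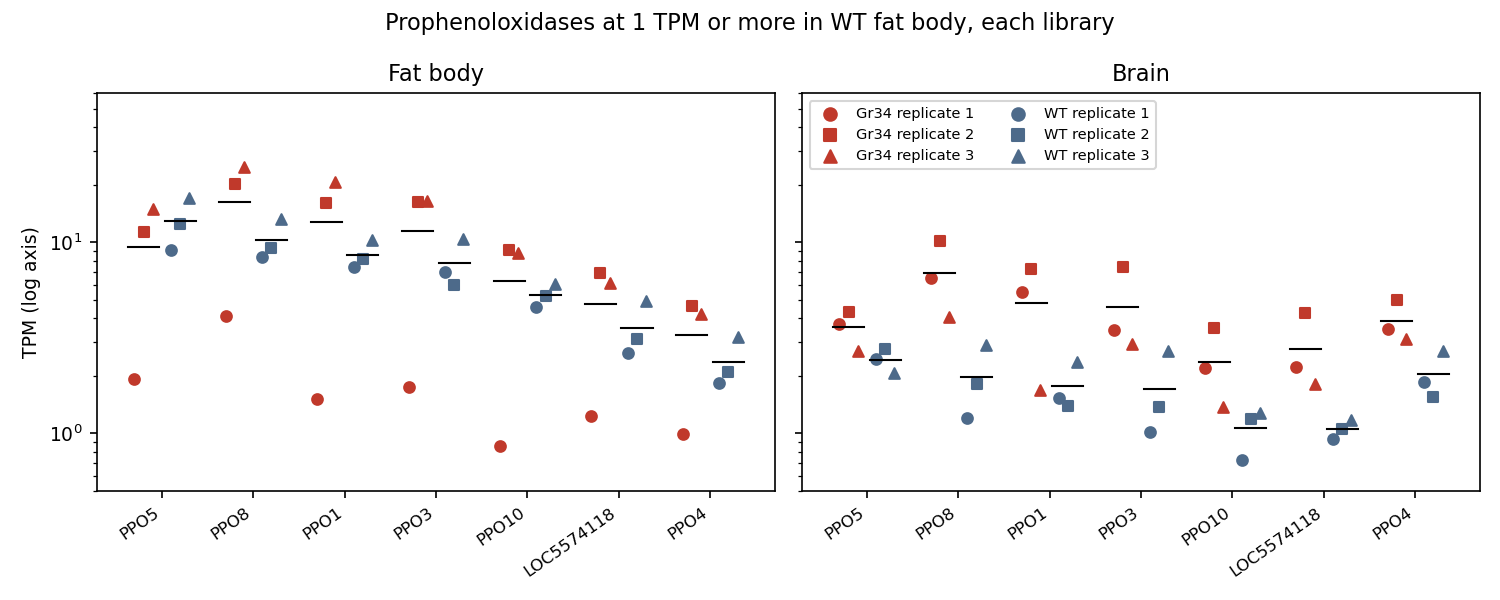
TPM on a log axis of the 7 prophenoloxidases with a mean of at least 1 TPM in WT fat body, in fat body (left) and brain (right). Red is Gr34 and blue is WT, marker shapes give the replicate number within a group, and bars are group means. In fat body the first Gr34 replicate lies below every WT replicate for all 7 genes, while in brain the second Gr34 replicate is the highest.

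Whether the genotype difference itself differed between tissues was tested as an interaction over all 12 libraries. Of 96 tested members none was called by edgeR or DESeq2, against 0.467% and 1.81% of all genes, and 9 had an unadjusted p under 0.05, against 9.03% of all genes. The median of the genotype effect in fat body minus that in brain was -0.51, against 0.04 over all genes, and 30 of 96 members lay above 0, against 53.6%. By role the median was -0.48 for proteases, -0.27 for serpins and -0.94 for prophenoloxidases. For factor C and the persephone-like protease the genotype difference in brain was called and that in fat body was not, and the interaction was -1.28 ± 0.63 SE for factor C and -1.62 ± 0.66 SE for the persephone-like protease (adjusted p 0.603 and 0.470). Both genotype comparisons and the interaction share libraries.

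Most members were fat body genes. In WT libraries 71 of 91 tested members were higher in fat body than in brain and 5 were lower, against 32.0% and 32.7% of all genes. In Gr34 libraries 62 of 90 were higher and 3 lower, against 32.8% and 31.6%. Of 89 members tested in both genotypes, 60 were called higher in fat body in both, against 28.9% of all genes, 2 were called higher in brain in both, against 28.0%, and the other 27 were not called the same way. The median log2 difference of fat body over brain was 2.32 in Gr34 and 2.82 in WT libraries. On the log2(TPM + 1) scale those medians were 1.29 in Gr34 and 1.81 in WT, while the median of all genes moved to -0.43 in Gr34 and -0.41 in WT.

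By role, 45 of 60 proteases, 11 of 18 serpins, both tested dopachrome enzymes and 2 of 7 prophenoloxidases were called higher in fat body in both genotypes. SRPN8 and its copy LOC110681257 are both among the 11 serpins. The 2 prophenoloxidases were PPO5, at 1.82 ± 0.56 SE in Gr34 and 2.85 ± 0.20 SE in WT libraries, and PPO8, at 1.68 ± 0.55 SE in Gr34 and 2.84 ± 0.39 SE in WT libraries. For both, the tissues overlapped in Gr34 and not in WT libraries. Neither Kazal or Kunitz inhibitor was called. The tissues were dissected apart, and other differences between the sets of libraries cannot be told apart from the tissue.

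Ranked by the mean of the log2 differences in both genotypes, among members called in both, CLIPB19 came first at 4.63, although yellow-f had a larger difference than CLIPB19 in WT alone (5.20) and LOC5572012 in Gr34 alone (5.07). CLIPB19 had 114, 87.7 and 134 TPM in Gr34 fat body, against 13.5, 10.1 and 6.19 TPM in Gr34 brain. In WT it had 94.1, 80.3 and 100 TPM in fat body, against 3.78, 3.89 and 4.19 TPM in brain. Its log2 difference was 4.19 ± 0.46 SE in Gr34 and 5.08 ± 0.35 SE in WT. CLIPB36 (LOC23687745), in the same CLIPB cluster, had 131 ± 47.4 TPM in Gr34 fat body, against 14.8 ± 4.01 TPM in Gr34 brain, and 178 ± 56.5 TPM in WT fat body, against 8.92 ± 2.10 TPM in WT brain (SD, n = 3 each).

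A factor C-like gene (LOC110680871), on an unplaced scaffold, had 28.1 ± 9.46 TPM in Gr34 fat body, against 1.98 ± 1.21 TPM in Gr34 brain, and 30.4 ± 10.0 TPM in WT fat body, against 1.70 ± 0.355 TPM in WT brain (SD, n = 3 each). Its levels overlapped between genotypes in each tissue. The easter-type LOC5568137 and SRPN20 completed the 5 largest by that mean, with log2 differences of 3.68 ± 0.49 SE and 3.72 ± 0.30 SE in Gr34 and 4.80 ± 0.60 SE and 4.75 ± 0.50 SE in WT. The 5 genes did not overlap between tissues in either genotype.

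The 2 members called higher in brain in both genotypes were SRPN23 and a stubble-type protease (LOC5567150), named after a Drosophila gene for bristle and appendage shape. SRPN23 had 0.531, 3.14 and 0.821 TPM in Gr34 fat body, against 79.3, 58.7 and 0.435 TPM in Gr34 brain, so the Gr34 tissues overlapped. In WT it had 0.194, 1.16 and 0.818 TPM in fat body, against 12.6, 28.9 and 13.99 TPM in brain. The stubble-type gene had 0.0847, 0.301 and 0.107 TPM in Gr34 fat body, against 0.397, 1.197 and 0.516 TPM in Gr34 brain. It lay at 0, 0.0407 and 0.208 TPM in WT fat body, against 1.14, 0.781 and 1.22 TPM in WT brain. SRPN25, listed at 0 in every WT fat body library, was at least 136.5-fold lower there than in WT brain, with 3 counts over the group as the floor. In Gr34 libraries SRPN25 had 33, 100 and 0 counts in fat body, against 1573, 855.5 and 9 counts in brain, and was not called (log2 difference -4.21, edgeR adjusted p 0.0685). In brain SRPN23 and SRPN25 ran with the salivary gland share, and the part of salivary gland tissue in their brain levels was not tested.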

How the data were processed

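Gene-level tables of 12 libraries were used. Estimated counts per gene, of which 25.39% were not whole, were deposited by the authors. FastQC, STAR, Subread with featureCounts, and DESeq2 appear in the submitters' processing notes, without versions or roles. No label or header says what was done with reads that map to several places or whether strand was used. Genes that overlap or have near-identical copies may share reads. TPM values were deposited by the authors beside the counts. The authors also deposited DESeq2 tables with log2 fold changes and p-values between genotypes per tissue.

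Counts were rounded and tested with edgeR 4.0.16 (R 4.3.3) by its quasi-likelihood test, after TMM scaling and a filter at 10 counts (total 15), with Benjamini-Hochberg adjustment over all genes tested and a threshold of 0.05. Each genotype comparison used its own tissue's 6 libraries, each tissue comparison its own genotype's, and the interaction all 12. Members with too few counts were not tested: 25 in brain, 20 in fat body. The procedure was first tested on simulated counts. Alternatives were DESeq2 1.42.0, limma 3.58.1 (voom, and log2(TPM + 1) or log2(TPM + 0.1)), other scalings and filters, a replicate block, 1 fit of all 12 libraries, a 2-fold minimum, and leaving out each library. Figures were drawn with matplotlib 3.10.9. All 110 members had the same start and end in a RefSeq table of AaegL5.0, and no sequence was used here.

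Genes named with values were the members called between genotypes, the 3 most abundant of each role in WT fat body and in WT brain, and the largest tissue differences called in both genotypes; others are marked as chosen after their values were seen or come with the results they sit beside. The members, lists and tests were chosen with earlier results of these data known, and the fat body list without eggshell names, the sorting by tissue difference and the TPM ranks were added after seeing the data.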

Additional observations from a re-analysis of the deposited data

How the results depend on the processing

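In brain 13 members were called; DESeq2 called 35, scaling by library size only 20, and 1 fit of all 12 libraries 4. Leaving out each brain library gave 2 to 26 calls, and leaving out Gr34 replicate 2 or WT replicate 1 gave 4 each. The other settings, apart from the replicate block, gave 11 to 19. In fat body no member was called by edgeR; DESeq2 called 7, no filter on low counts 2, and the fit of all 12 libraries 5, and leaving out each library gave 0 throughout. For the difference between tissues, with none called by edgeR, leaving out a library gave 0 to 1, the 1 being without WT fat body replicate 1. The tissue calls numbered 55 to 70 in Gr34 and 71 to 81 in WT libraries with 1 left out. The members' median in brain stayed above 0 in every setting run. Shares of all genes called were worked out for the main edgeR fit (8.86% in brain, 0.234% in fat body) and for DESeq2 (12.1% and 2.71%). They were not worked out for the other settings, the replicate block and the fits without a library included. There a shift in member calls cannot be told apart from a shift over all genes. Causes of these shifts were not tested.

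Replicate numbers shared between groups did not pair the libraries. Same-numbered libraries had correlations of deviations of -0.00, 0.14 and 0.24 in brain and 0.20, 0.36 and -0.26 in fat body. With the replicate number as a block, 8 members were called in brain, 1 in fat body, 0 for the difference between tissues, 57 between Gr34 tissues and 75 between WT tissues.

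In brain, factor C and the persephone-like protease had few counts in WT libraries, and LOC110680964 in Gr34 libraries. LOC110680655 and LOC110680656 had few counts in both genotypes there. The biological coefficient of variation was 0.406 in fat body, against 0.210 in brain.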
